A study of Bos taurus with 6 samples.

Results

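The granins and the genes that cut and trim prohormones were followed through the testis transcriptome of Wandong cattle, a local breed of Anhui in China. The 9 genes were the granins CHGA, CHGB, SCG2 and SCG3, the prohormone convertases PCSK1, PCSK2 and PCSK4, the convertase chaperone SCG5 and the carboxypeptidase CPE. They were found by exact gene name, 1 entry each, among the 47249 genes of the deposited FPKM table, in which fragments are scaled by transcript length and library size. The members were chosen on their values in the contrast of bulls and calves, in which CHGA, CPE and PCSK4 differed strongly, so their levels and differences are a description and were not tested. Total RNA depleted of ribosomal RNA had been sequenced from testes of 3 calves and 3 bulls, 1 library per animal. The calves were aged 3 months (± 0.24 months in the labels) and the bulls 3 years (± 0.014 years). The Methods of the paper give the same spreads, whereas its Results print ± 0.014 months and ± 0.24 years. The paper describes the animals as physically healthy and names no treatment. The slices were taken from the middle of the organ after its capsule had been removed, so each value is an average over all cells of the slice. The animals were separate, and the error given for the members is the spread between animals. For the other genes the SE comes from the limma fit, which also draws on the spread of all genes tested.

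Granins are acidic proteins of the regulated secretory pathway. They are packed with prohormones into dense core vesicles of endocrine cells and neurons, and CHGA is the best known blood marker of neuroendocrine tissue. Within these vesicles the convertases encoded by PCSK1 and PCSK2 cut prohormones after pairs of basic residues, SCG5 (the 7B2 protein) escorts the PCSK2 enzyme until it is active, and CPE takes the basic residues off the new ends. PCSK4 is a convertase of germ cells and is known for its expression in spermatids and its place on sperm. The remaining convertases, FURIN among them, act mainly in the constitutive pathway of most cells.

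The library labelled calf 3 was low in most of the listed markers of calf testis, and its values are therefore given apart. The summed FPKM of 8 Sertoli cell markers was 2821 and 2693 in the first pair of calves but 438 in calf 3, where FSHR, GATA4 and WT1 were listed at 0 and CLU alone made up 423 of the sum. The bulls, at 380 to 398, were lower still in that sum. SOX9 was at 13.7 FPKM in calf 3, against 21.9 and 25.6 FPKM in calf 1 and calf 2. For 6 Leydig cell markers the sums were 1390 and 1087 in the same animals and 0.502 in calf 3, with CYP11A1 and HSD17B3 listed at 0. Spermatogonia markers summed to 9.30 in calf 3, of which KIT was 8.90, against 103 and 134 in calf 1 and calf 2. Markers of nervous tissue stood high in calf 3 instead. The sum of 8 neuron markers was 919 against at most 16.5 in any other library, and the sums were 13017 against at most 29.4 for 6 oligodendrocyte markers and 1787 against at most 8.07 for 5 astrocyte markers. In that library 7 of 8 neuron, 6 of 6 oligodendrocyte and 5 of 5 astrocyte markers had their highest value, SLC17A7 being the exception. The sums of chromaffin cell markers (0.842), anterior pituitary markers (7.55, all of it POMC) and islet markers (0.514) in calf 3 were not above the range of the other calves. In the bulls, markers of spermatids summed to between 13449 and 15208, against 3.99 and 4.10 in calf 1 and calf 2. The part of these markers in the values below was not tested, and in a bulk sample fewer cells of a type and less RNA per cell cannot be told apart. The deposited values hold no counts, so the depth behind each value is unknown, and their sums per library ran from 587066 (calf 3) to 1098715 (calf 2).

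In calf 1 and calf 2, CHGA was the main granin of the testis. In the bulls CHGB took that place and CHGA was close to 1 FPKM. In the library labelled calf 3 all 4 granins were abundant together. CPE and SCG5 were lower in the bulls than in every calf, and PCSK4 was higher in the bulls than in every calf. The plot of levels by library shows these patterns on a log scale.

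**Figure D1:**
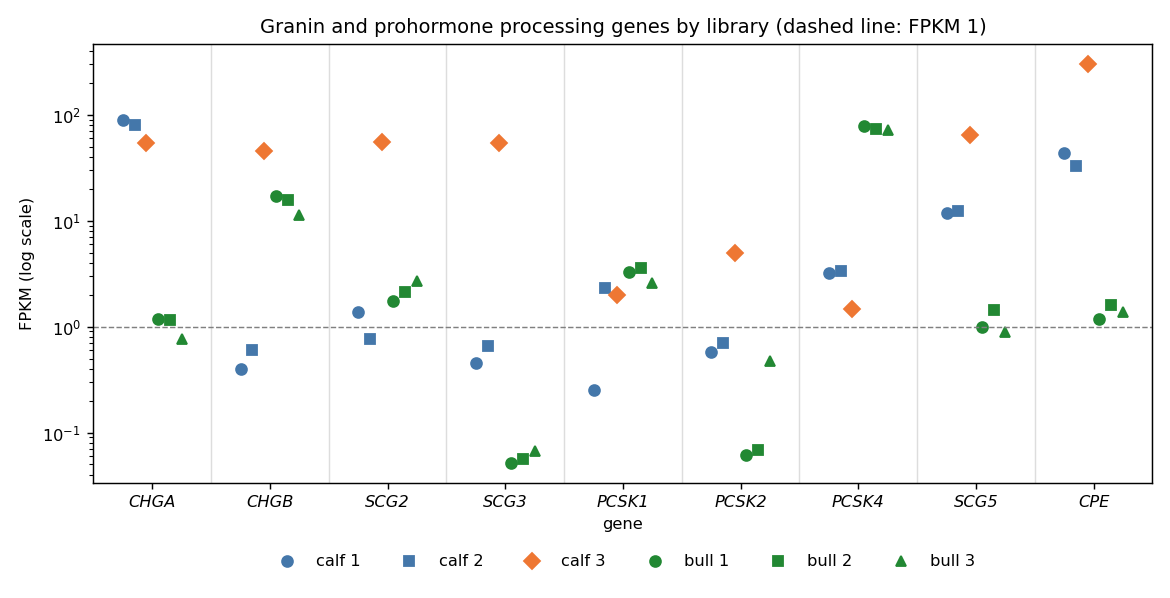
FPKM (log axis) of the 9 genes in each of the 6 libraries; 1 point is 1 library, blue for calf 1 and calf 2, orange for the library labelled calf 3 and green for the bulls, and the dashed line marks 1 FPKM. CHGB, SCG2, SCG3, PCSK2, SCG5 and CPE had their highest value in calf 3, whereas CHGA was high in all calves and PCSK4 was between 72.7 and 78.6 in the bulls.

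CHGA (ENSBTAG00000009836, chromosome 21, 57571704 to 57585058), the precursor of vasostatin, pancreastatin and catestatin, was at 88.9, 79.6 and 54.0 FPKM in calves 1 to 3 and at 1.17, 1.15 and 0.764 FPKM in bulls 1 to 3. The groups did not overlap, and all calves were far above all bulls. The means were 74.2 ± 18.1 in the calves and 1.03 ± 0.228 in the bulls (SD, n = 3). Without calf 3 the calf mean was 84.3 ± 6.58 (SD, n = 2), which was 82.1 times the bull mean. Among all genes of a library, CHGA held ranks 445, 520 and 805 in the calves and ranks 17044 to 20594 in the bulls. It was the granin whose level in calf 3 was nearest to that of the other calves, at 0.641 of their mean.

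CHGB (ENSBTAG00000011782, chromosome 13, 48069187 to 48084157), the precursor of secretolytin, was at 0.402, 0.603 and 45.3 FPKM in the calves and at 17.2, 15.9 and 11.4 FPKM in the bulls, in the same order. The groups overlapped through calf 3 alone, which lay above every bull, while calf 1 and calf 2 lay below every bull. The bull mean of 14.8 ± 3.04 (SD, n = 3) was 29.5 times the mean of calf 1 and calf 2 (0.503 ± 0.142, SD, n = 2), and the value of calf 3 was 90.2 times that mean. With calf 3 the calf mean was 15.4 ± 25.9 (SD, n = 3), close to the bull mean. CHGA and CHGB thus differed between the bulls and the first pair of calves in opposite directions.

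SCG2 (ENSBTAG00000021588, chromosome 2, 111768890 to 111774486), the precursor of secretoneurin, was 1.38, 0.767 and 55.8 FPKM in calves 1 to 3 and 1.76, 2.13 and 2.70 FPKM in bulls 1 to 3. Apart from calf 3, all of these levels were low. The bulls were above calf 1 and calf 2, at 2.20 ± 0.472 (SD, n = 3) against 1.08 ± 0.437 (SD, n = 2), and calf 3 was 51.9 times the mean of the other calves. SCG3 (ENSBTAG00000017677, chromosome 10, 58646803 to 58684773), a granin that binds CHGA and helps to sort it into vesicles, was 0.453, 0.650 and 53.8 FPKM in the calves and 0.0519, 0.0559 and 0.0665 FPKM in the bulls. Only calf 3 reached 1 FPKM for SCG3, at 97.5 times the mean of calf 1 and calf 2. The bull mean of SCG3 was 0.0581 ± 0.00751 (SD, n = 3), below both calf 1 and calf 2.

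The make-up of the granin pool followed from these levels. Because FPKM is scaled by transcript length, the values of different genes were summed within each library. The 4 granins summed to 91.1 and 81.6 FPKM in calf 1 and calf 2, to 20.2, 19.2 and 14.9 FPKM in the bulls and to 209 FPKM in calf 3. CHGA made up 97.5% of the sum in both calf 1 and calf 2 and between 5.11% and 5.98% in the bulls. CHGB made up 0.441% and 0.739% in the same calves and 85.3%, 82.6% and 76.4% in bulls 1 to 3. SCG2 took most of what remained in the bulls, at 8.71%, 11.1% and 18.0%, and SCG3 was at most 0.445% there. In calf 3 no granin was in the majority, with 25.9% CHGA, 21.7% CHGB, 26.7% SCG2 and 25.7% SCG3.

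**Figure D2:**
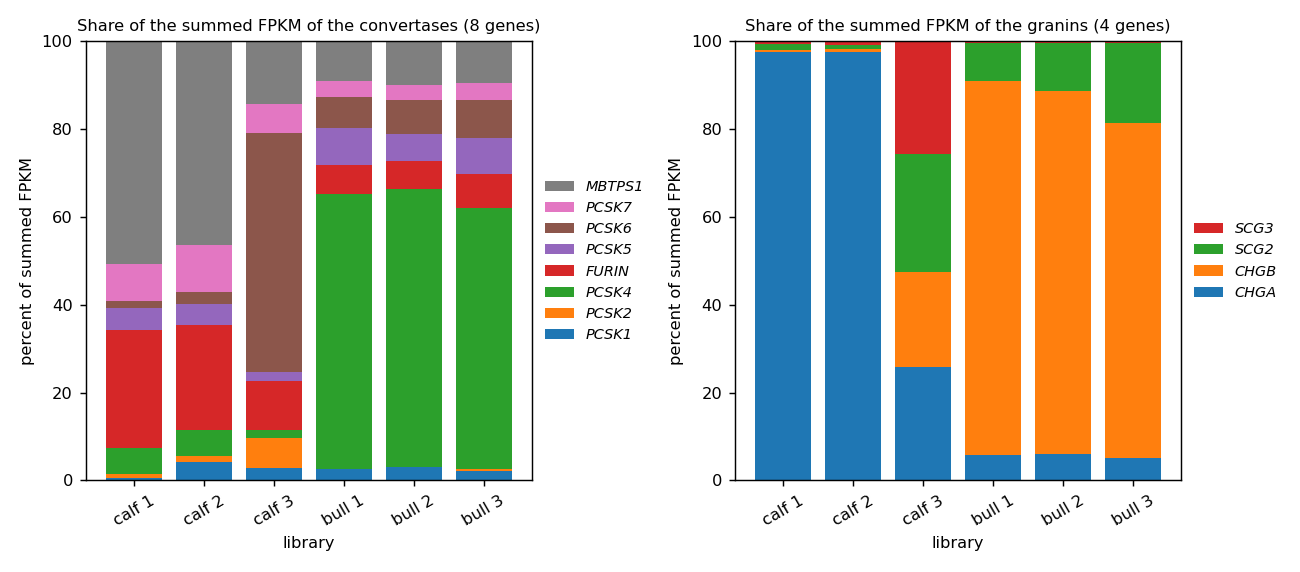
Share of the summed FPKM (percent) that each of 8 convertases (left) and each of 4 granins (right) held in each library; 1 bar is 1 library. CHGA filled 97.5% of the granin bar in calf 1 and calf 2 and CHGB at least 76.4% of it in the bulls, PCSK4 filled 59.5% to 63.3% of the convertase bar in the bulls, and PCSK6 filled 54.6% of it in calf 3.

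Among the convertases, PCSK4 (ENSBTAG00000002305, chromosome 7, 43888437 to 43894724) was at 3.23, 3.36 and 1.46 FPKM in the calves and at 78.6, 74.3 and 72.7 FPKM in the bulls. The groups did not overlap, the bulls were close together, and calf 3 was the lowest library. The means were 75.2 ± 3.07 in the bulls and 2.68 ± 1.06 in the calves (SD, n = 3). Against calf 1 and calf 2 alone (3.29 ± 0.0868, SD, n = 2), the bull mean was 22.8 times as high. PCSK4 held ranks 10361 to 13688 among the genes of the calf libraries and ranks 960 to 1041 in the bulls. The spermatid markers given above were also far higher in every bull, and they were not alone in this. Spermatocyte markers summed to 14.8 and 22.4 in calf 1 and calf 2 and to 319 to 395 in the bulls. Spermatogonia markers summed to 103 and 134 in the same calves and to 323 to 338 in the bulls, although KIT among them was lower in the bulls. The part of each cell type in the PCSK4 values was not tested.

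PCSK1 (ENSBTAG00000020843, chromosome 7, 95746079 to 95791465), which makes the first cuts in many prohormones, was low in all libraries. It was at 0.254, 2.31 and 1.99 FPKM in calves 1 to 3 and at 3.30, 3.57 and 2.58 FPKM in the bulls. The bulls lay above every calf, by a small margin over calf 2, and the range of the calves was wider than the distance between the means of the groups. PCSK2 (ENSBTAG00000008687, chromosome 13, 37505784 to 37745694), the convertase of neurons and of islet cells, was 0.574, 0.707 and 4.92 FPKM in calves 1 to 3 and 0.0608, 0.0678 and 0.478 FPKM in bulls 1 to 3. All bulls were below all calves, and calf 3, the only library above 1 FPKM, was 7.68 times the mean of calf 1 and calf 2.

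The make-up of the convertases also differed with age. The 8 convertases found in the table summed to 55.6 and 55.1 FPKM in calf 1 and calf 2, to 72.2 FPKM in calf 3 and to 126, 117 and 122 FPKM in the bulls. PCSK4 held 62.6%, 63.3% and 59.5% of the sum in bulls 1 to 3, against 5.82%, 6.09% and 2.01% in calves 1 to 3. In calf 1 and calf 2 the sum lay mostly in MBTPS1, the site-1 protease of the Golgi (50.7% and 46.5%), and in FURIN (27.0% and 23.8%). In calf 3 PCSK6, a convertase of growth factor precursors, held 54.6%, and PCSK2 had its largest share there, 6.80%. PCSK1 stayed between 0.458% and 4.20% in all libraries.

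SCG5 (ENSBTAG00000032613, chromosome 10, 30003348 to 30063777) stood at 11.7, 12.4 and 64.9 FPKM in calves 1 to 3 and at 0.999, 1.45 and 0.881 FPKM in bulls 1 to 3. All calves were above all bulls. The mean of calf 1 and calf 2 (12.1 ± 0.506, SD, n = 2) was 10.9 times the bull mean (1.11 ± 0.298, SD, n = 3), and calf 3 was 5.38 times the mean of the other calves. SCG5 was thus above PCSK2, the enzyme that its protein escorts, in every library.

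CPE (ENSBTAG00000016514, chromosome 17, 573369 to 721435) was the most abundant of these genes after CHGA in calf 1 and calf 2, and in calf 3 it was the first. Its FPKM was 43.8, 32.9 and 303 in calves 1 to 3 and 1.17, 1.60 and 1.39 in bulls 1 to 3. All calves were above all bulls. The mean of calf 1 and calf 2 (38.4 ± 7.69, SD, n = 2) was 27.7 times the bull mean (1.38 ± 0.214, SD, n = 3). Calf 3 was 7.89 times the mean of the other calves, and CPE held rank 88 of all genes in that library.

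On the scale of log2(FPKM + 1), on which 1 unit is a doubling of a high value and low genes are understated, the difference of bulls minus calves was -5.19 (SE 0.24) for CHGA, -5.02 (SE 0.997) for CPE, -3.42 (SE 0.79) for SCG5 and 4.42 (SE 0.27) for PCSK4. Without calf 3 these differences were -5.40 (SE 0.13), -4.04 (SE 0.21), -2.64 (SE 0.12) and 4.15 (SE 0.04). These 4 genes kept their direction with either set of calves. The difference of CHGB was 1.73 (SE 1.66) and was 3.38 (SE 0.19) without calf 3. That of SCG2 turned from -0.97 (SE 1.61) to 0.63 (SE 0.25). SCG3 went from -2.26 (SE 1.72) to -0.55 (SE 0.09) and PCSK2 from -1.08 (SE 0.64) to -0.46 (SE 0.17), so most of their difference on this scale lay in calf 3. PCSK1 was at 0.83 (SE 0.46) and at 1.02 (SE 0.71) without calf 3. The median over the 9 genes was -1.08, and -0.46 without calf 3, beside a median of 0.43 over all 18115 genes tested in either case.

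**Figure D3:**
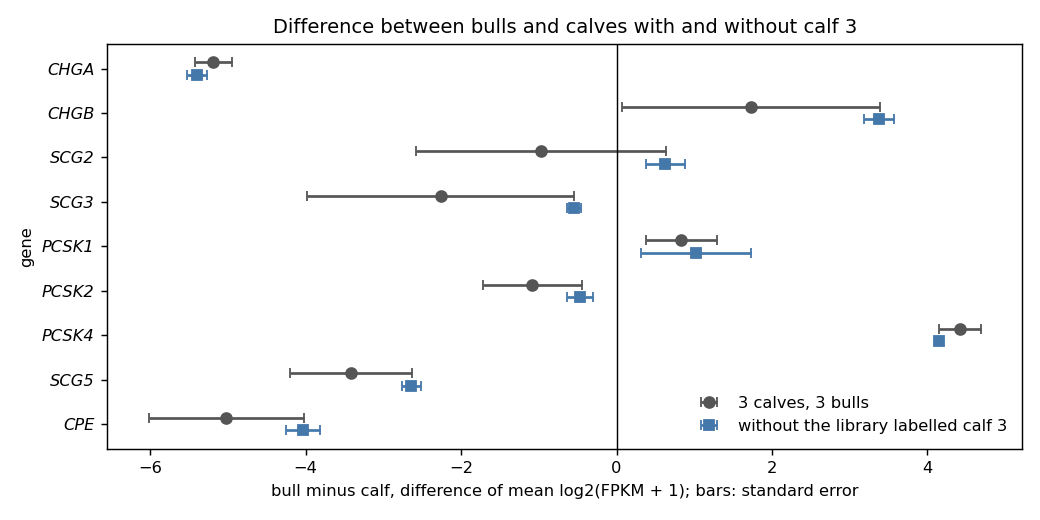
Difference of mean log2(FPKM + 1), bulls minus calves, for the 9 genes, with grey circles for all 6 libraries and blue squares for the 5 libraries without calf 3; bars are the standard error. The bars of CHGB, SCG2, SCG3, PCSK2, PCSK4, SCG5 and CPE were several times shorter without calf 3, and that of PCSK1 was longer. Without calf 3 the spread of the calves rests on calf 1 and calf 2 only. SCG2 changed sign, from -0.97 to 0.63.

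In counts, all bulls lay above all calves for 2 of the 9 genes (PCSK1 and PCSK4) and below them for 5 (CHGA, SCG3, PCSK2, SCG5 and CPE), and the groups overlapped for CHGB and SCG2. Over all genes tested, the bulls lay above all calves in 46.1% and below them in 21.3%. Against calf 1 and calf 2 only, the bulls were above for 4 of the 9 genes and below for 5, where the shares over all genes tested were 53.5% and 30.9%. A level of at least 1 FPKM in at least 3 libraries, required of the genes tested, was reached by 7 of the 9 members, and SCG3 and PCSK2 missed it because only calf 3 exceeded 1 FPKM. Of these 7 members, 2 were above all calves and 3 below, and 4 were above calf 1 and calf 2 and 3 below. As the contrast had served to choose the members, nothing is read from these counts.

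The table of transcripts showed what the values of the genes were made of. It listed 21 entries for the 9 genes, of which 14 were Ensembl transcripts, 2 had been assembled from the reads, and 5 carried antisense names, and in each library the entries of a gene added up to its FPKM within 0.001. CHGB and PCSK4 had a single Ensembl transcript each. CHGA-201, the longer of the CHGA transcripts, made up 97.8% to 99.8% of CHGA in the calves and 81.2% to 93.0% in the bulls, where the shorter CHGA-202 made up the rest. The shorter of the SCG2 transcripts reached its largest share, 9.65%, in calf 3.

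PCSK1 was the gene for which the kind of transcript mattered most. The annotated transcript of PCSK1 was 0.0498, 2.12 and 1.85 FPKM in calves 1 to 3 and 0.830, 0.671 and 0.494 FPKM in the bulls, so that the bulls lay between calf 1 and the other calves. A transcript assembled from the reads over the same locus was 0.121, 0.150 and 0.124 FPKM in the calves and 2.13, 2.54 and 1.54 FPKM in the bulls, and it made up 59.6% to 71.1% of PCSK1 in the bulls. An entry named PCSK1-AS1 (chromosome 7, 95746401 to 95750879) added 0.342, 0.361 and 0.547 FPKM in the bulls. With the Ensembl transcript alone, the difference of bulls minus calves on the log2 scale was -0.34 in place of 0.83, and -0.13 in place of 1.02 without calf 3. The higher PCSK1 value of the bulls was thus carried by entries other than the annotated transcript. An unnamed gene entry that starts at the same base as PCSK1-AS1 was also higher in the bulls, at 1.34, 1.52 and 0.999 FPKM against at most 0.0592 in the calves.

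SCG5 and PCSK2 likewise included entries with antisense names. SCG5-AS1 (chromosome 10, 30059202 to 30063777) was listed at 0 in 2 calves, at 0.0320 FPKM in calf 2 and at 0.401, 0.430 and 0.476 FPKM in the bulls. It made up 40.1%, 29.7% and 54.1% of SCG5 in bulls 1 to 3, and its first base is that of the neighbouring entry of ARHGAP11A. Without it the difference of SCG5 on the log2 scale was -3.76 in place of -3.42. For PCSK2, the annotated transcript was 0.330, 0.351 and 4.92 FPKM in calves 1 to 3 and 0.0266, 0.0359 and 0.0778 FPKM in bulls 1 to 3, and it made up all of the gene in calf 3 but 16.3% in bull 3, where PCSK2-AS1 made up 82.1%. The libraries keep the strand of the RNA, but the table gives none and the sources used here do not say how fragments of overlapping entries were divided.

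CPE held a short assembled entry of 1297 bases at the first base of its locus (chromosome 17, 573369 to 574665). This entry made up 0.416%, 1.63% and 0.515% of CPE in calves 1 to 3 and 14.1%, 38.9% and 39.6% in bulls 1 to 3. With the Ensembl transcript CPE-201 alone, the difference of CPE on the log2 scale was -5.31 in place of -5.02. The direction of CHGA, SCG5 and CPE was therefore the same for the annotated transcripts as for the whole gene.

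**Figure D4:**
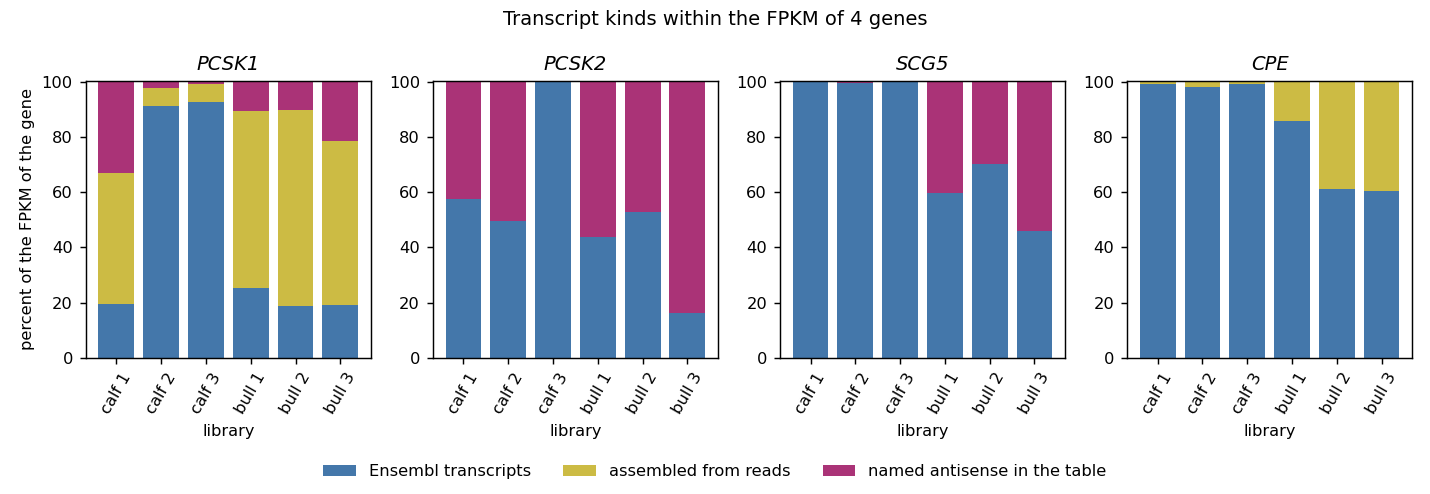
Percent of the FPKM of PCSK1, PCSK2, SCG5 and CPE in each library that came from Ensembl transcripts (blue), entries assembled from reads (yellow) and entries with antisense names (purple). In the bulls, Ensembl transcripts made up 18.8% to 25.2% of PCSK1, 16.3% to 53.0% of PCSK2 and 60.4% to 85.9% of CPE.

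The other genes of the pathway had not been used to choose the members, and the limma test across all genes was read for them. Their list was, however, drawn up with earlier results of these data known, so their counts and p-values are not independent of these data. Of 88 listed symbols, 83 were found in 1 entry each, and 43 of these reached the level required for testing. At an adjusted p under 0.05 and a difference of at least 1 on the log2 scale, 10 of the 43 were higher in the bulls (23.3%) and 9 lower (20.9%), and 24 did not pass. Over all genes tested, 35.7% were higher and 9.61% were lower. Without calf 3, 15 were higher (34.9%) and 12 lower (27.9%), beside 37.9% and 13.6% over all genes tested, and 18 of the 19 genes kept their call. Of these 19 genes, TAC1, QRFP and ADAM2 reached 1 FPKM in the bulls alone. CPXM2, HID1, GAL, PDYN and ADM reached it in the calves alone. These genes met the level for testing only through the group where they were high, so their calls could only be in that direction. The fit without calf 3 kept the same genes. There INSL6, ACRBP, PTPRN2, RPH3A and SYT7 also reached 1 FPKM in the bulls alone, with the same limit. The median difference of the 43 genes was 0.22, and -0.015 without calf 3. The split depends on the scaling: it was 7 higher and 13 lower after quantile normalization, 8 and 14 after upper quartile scaling and 12 and 6 after scaling to a common total, as the median over all genes tested moved from 0.43 to -0.13, -0.09 and 0.63. The count of lower genes was 3, 4 and 3 without bull 1, bull 2 and bull 3, and 7 and 5 without calf 1 and calf 2.

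Next to the members, 1 of 5 other convertases tested was higher in the bulls (20%, beside 35.7% over all genes tested). This was PCSK5, which cuts growth factor precursors, with a difference of 1.66 (SE 0.26, adjusted p = 0.00225) and no overlap between groups. FURIN, PCSK6, PCSK7 and MBTPS1 did not pass with all libraries. PCSK6 was 0.855, 1.50 and 39.4 FPKM in calves 1 to 3 and 8.92, 9.01 and 10.7 FPKM in the bulls. Its difference was 0.88 (adjusted p = 0.553), and 2.29 (adjusted p = 8.63e-05) without calf 3. MBTPS1 likewise passed without calf 3, at -1.16 (adjusted p = 0.000133), against -0.73 (adjusted p = 0.154) with it.

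PCSK1N, which encodes the granin-like inhibitor of the PCSK1 enzyme, was lower in the bulls. Its FPKM was 69.0, 148 and 106 in calves 1 to 3 and 16.6, 13.1 and 8.21 in bulls 1 to 3, a difference of -2.98 (SE 0.36, adjusted p = 0.000817) that was -2.96 without calf 3. In calf 3 it was between calf 1 and calf 2, unlike most granins.

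Of the relatives of CPE, 2 of 4 tested were lower (50%, beside 9.61% over all genes tested). CPD, a carboxypeptidase of the trans-Golgi network, was 217, 199 and 70.2 FPKM in the calves and 44.4, 48.4 and 44.9 FPKM in the bulls (difference -1.64, SE 0.45, adjusted p = 0.0220, and -2.15 without calf 3). CPXM2 was lower by a smaller step (-1.24, adjusted p = 0.0359), and its difference of -0.87 did not pass without calf 3. CPXM1, at 0.08 with all libraries and -0.82 without calf 3, did not pass in either. CPD did not pass when any library other than calf 3 was left out, and of these fits CPXM2 passed only in the 1 without calf 1. CPXM2 also missed a call after scaling to a common total (adjusted p = 0.108), with no filter on low values (adjusted p = 0.0647) and with array weights (-0.85).

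The enzymes that finish peptide ends went both ways. PAM, which amidates the last residue of many peptides, was 366, 367 and 51.7 FPKM in calves 1 to 3 and 33.0, 35.7 and 33.5 FPKM in the bulls. Its difference of -2.46 (SE 0.78, adjusted p = 0.0372) was -3.39 without calf 3, and it did not pass when any other library was left out or with no filter on low values (adjusted p = 0.0587). QPCTL, a glutaminyl cyclase of the Golgi, was higher (1.26, SE 0.24, adjusted p = 0.00537), though not past the threshold of 1 after quantile normalization (0.77) or upper quartile scaling (0.76).

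Of 12 genes of vesicle formation and release, 1 was higher (8.33%) and 2 were lower (16.7%), beside 35.7% and 9.61% over all genes tested. CYB561, the cytochrome that supplies electrons to PAM within vesicles, was 0.678, 1.23 and 4.69 FPKM in the calves and 21.4, 17.3 and 22.4 FPKM in the bulls (2.94, SE 0.47, adjusted p = 0.00248). HID1, which serves dense core vesicle formation at the Golgi, was lower (-1.97, SE 0.48, adjusted p = 0.0146), as was the vesicle GTPase RAB3D (-1.12, SE 0.19, adjusted p = 0.00305). HID1 did not pass without bull 1 or without bull 3. After scaling to a common total neither gene passed, HID1 by its adjusted p (-1.99, adjusted p = 0.0555) and RAB3D by its size (-0.99). CADPS, a priming factor of vesicle release, and SLC18A2, a monoamine transporter, did not pass and changed sign without calf 3, from -1.09 to 0.26 and from 0.35 to -0.28. Without calf 3, 4 genes of this group were higher (33.3%) and 2 lower (16.7%), beside 37.9% and 13.6% over all genes tested. PTPRN2 (1.97, adjusted p = 5.66e-05), RPH3A (1.93, adjusted p = 0.000772) and SYT7 (2.60, adjusted p = 0.000106) then passed beside CYB561. In calf 3 PTPRN2, RPH3A and SYT7 were at 17.8, 7.52 and 20.8 FPKM, against at most 0.851 FPKM in the other calves. Without calf 3 these 3 genes met the level for testing through the bulls alone, so they could only be called higher.

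Among 16 peptide precursors tested, 5 were higher (31.2%) and 3 lower (18.8%) in the bulls, beside 35.7% and 9.61% over all genes tested. PROK2, a prokineticin, was 0.719, 1.08 and 0.110 FPKM in calves 1 to 3 and 123, 94.9 and 110.2 FPKM in the bulls (6.12, SE 0.27, adjusted p = 1.63e-05). INSL6, an insulin-like peptide of germ cells, was 0.188, 0.211 and 1.46 FPKM in the calves and 87.5, 105.4 and 94.4 FPKM in the bulls (5.98, SE 0.32, adjusted p = 3.14e-05). TAC1, the substance P precursor, QRFP and POMC were higher by smaller steps of 1.62, 1.21 and 1.10. TAC1 and QRFP were low genes that met the level for testing through the bulls alone, with at most 0.921 and 0.156 FPKM in the calves. QRFP did not reach a difference of 1 after quantile normalization (0.74). POMC missed both thresholds after quantile normalization (0.56, adjusted p = 0.0619) and after upper quartile scaling (0.52, adjusted p = 0.0621). GAL, the galanin precursor, was lower (-2.37, SE 0.38, adjusted p = 0.00256), with 3.44, 3.70 and 10.4 FPKM in the calves against at most 0.221 FPKM in the bulls. PDYN, the dynorphin precursor (-1.60, adjusted p = 0.0163), and ADM, adrenomedullin (-1.28, adjusted p = 0.0168), were lower as well. Neither of these passed when any 1 bull was left out, nor did ADM without calf 2. PENK, the enkephalin precursor, varied widely within both groups, at 125, 25.1 and 1.45 FPKM in calves 1 to 3 and 0.492, 6.16 and 0.839 FPKM in bulls 1 to 3. Its difference of -2.89 did not pass (adjusted p = 0.146), and it was lower at -4.41 (adjusted p = 0.00439) without calf 3. TRH did not pass with either set, at 0.40 and at -0.015 without calf 3. Without calf 3, 6 precursors were higher (37.5%) and 5 lower (31.2%), beside 37.9% and 13.6% over all genes tested. OXT, the oxytocin precursor (1.11, adjusted p = 0.0463), and NUCB2, the nesfatin precursor (-1.45, adjusted p = 0.000299), then passed beside PENK.

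Of the 3 described substrates of PCSK4 that could be tested, the sperm proteins ADAM2 and ACRBP were higher in the bulls. That was 66.7%, beside 35.7% over all genes tested. ADAM2 was at most 0.153 FPKM in the calves and 191, 198 and 193 FPKM in the bulls (7.51, SE 0.14, adjusted p = 2.53e-06). ACRBP, the proacrosin binding protein, was 0.938, 0.757 and 5.15 FPKM in the calves and 52.1, 52.6 and 52.9 FPKM in the bulls (4.28, SE 0.49, adjusted p = 0.000631). IGF2 did not pass at -1.50 (adjusted p = 0.491) and was lower at -3.57 without calf 3, where it was at 0.476 FPKM against 136 and 85.6 FPKM in calf 1 and calf 2.

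**Figure D5:**
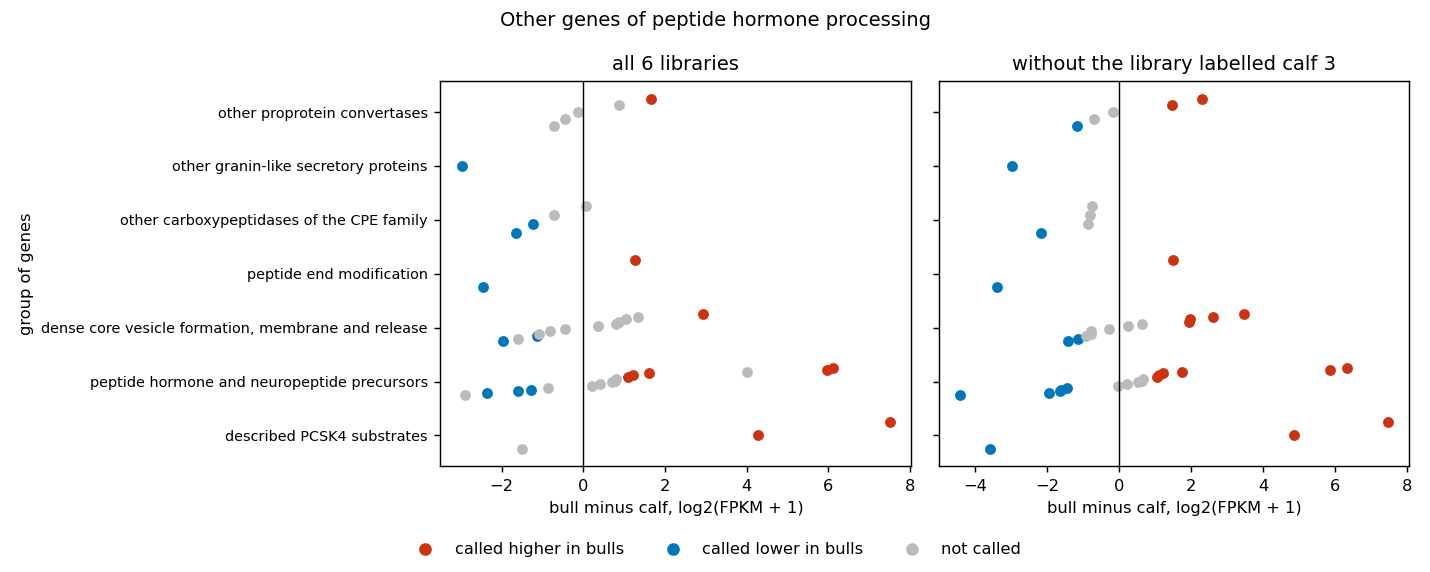
Difference of bulls minus calves on the scale of log2(FPKM + 1) for the 43 other pathway genes tested, by group of genes, with all 6 libraries (left) and without calf 3 (right); 1 point is 1 gene, red where it was higher and blue where it was lower in the limma test, grey where it did not pass. With all libraries 10 points are red and 9 blue, and without calf 3 15 are red and 12 blue.

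Many genes shared the pattern of each of the main members, since the libraries fall into few groups. Over the 6 libraries, the genes whose log2(FPKM + 1) was most like that of CHGA were CSK, ADGRA3 and KCTD3 (Pearson r of 0.999 each), among 13746 named genes compared. For CPE they were CASK, SCP2 and LRCH3, and for PCSK4 they were MEX3D, IFT52 and EPB41L4A. Without calf 3 the likest genes were others: the ribosomal protein genes RPS6, RPL32 and RPL13A for CHGA, GASK1B, EFS and ITM2C for CPE, and PLAAT5, KCTD19 and C5H12orf50 for PCSK4. These correlations describe 6 or 5 libraries of 2 ages and carry no test.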

How the data were processed

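Gene and transcript levels were analysed in 6 testis libraries, 3 of calves and 3 of bulls, grouped by their labels. Per the labels and Methods, the authors removed ribosomal RNA, made strand-specific libraries, mapped reads with TopHat2 and assembled transcripts with StringTie, and deposited FPKM values per gene and transcript. Cuffdiff, edgeR and Ballgown are named in the paper for circRNAs, and for the FPKM values of genes a tool is not given in the sources used here. UMD3.1.1 is given in the Methods as the genome. Positions are printed as deposited, and all 9 members overlap the locus of the same symbol in the RefSeq annotation of ARS-UCD2.0. The deposited values hold no counts, so no counting interval was computed.

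Genes with FPKM of at least 1 in at least 3 libraries (18115) were fitted on log2(FPKM + 1) with limma 3.58.1 (trend, two-sided, Benjamini-Hochberg over all genes tested) in R 4.3.3, and called at an adjusted p under 0.05 and a log2 difference of at least 1. The fit was tested on simulated data, where it called 117 of 200 genes (58.5%) given a log2 change of 2, and 5 unchanged genes. A gene that did not pass may therefore still differ. The members and the gene lists were chosen with earlier results of these data known, and the members were not tested. Named besides the members were, in each pathway group, up to 5 called genes per direction with groups that did not overlap, up to 5 genes that lost their call or changed direction without calf 3, the 3 genes most correlated with CHGA, CPE and PCSK4, and tissue markers. FURIN, PCSK6, PCSK7, MBTPS1, PENK, IGF2, PTPRN2, RPH3A, SYT7, OXT and NUCB2 were named after their values were seen. The alternatives were other pseudocounts, filters and scalings, array weights, a replicate block, leaving out each library and, chosen after seeing the data, sums of transcripts. The replicate numbers of calves and bulls come from separate animals. Protein and promoter sequences, circRNAs and RT-qPCR were not analysed here.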

Additional observations from a re-analysis of the deposited data

How the results depend on the processing

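The count of all genes lower in the bulls was 1741, and it was 3917 after quantile normalization, 3701 after upper quartile scaling and 1151 after scaling to a common total, beside 4683, 5073 and 6952 higher in place of 6474. Among the other pathway genes, 14 were lower after upper quartile scaling in place of 9, and leaving out 1 library at a time gave from 3 (without bull 1 or bull 3) to 12 (without calf 3) lower. With a replicate block, 10 pathway genes were higher and 10 lower, and 6437 and 1691 of all genes. The deviations of libraries with the same number correlated at 0.0277, 0.0246 and 0.0341, so the numbers were not taken as pairs, although each library correlated best with its own number. Signs turned for CADPS with array weights (0.16), for CPXM1 after quantile normalization (-0.46), upper quartile scaling (-0.41) and with array weights (-0.78), for SLC18A2 (-0.22, -0.032 and -0.22 in the same order) and for TRH after quantile normalization (-0.20). Leaving out 1 library gave -1.80 to 0.26 for CADPS, -0.82 to 0.61 for CPXM1, -0.28 to 0.81 for SLC18A2 and -0.015 to 0.67 for TRH, with the turned sign without calf 3. Over 14 alternatives, CHGA ranged from -6.03 to -5.04, CPE from -5.84 to -4.04, SCG5 from -4.16 to -2.64, PCSK4 from 3.77 to 4.85 and CHGB from 0.86 to 3.38. SCG2 took the other sign without calf 3 and PCSK1 with the Ensembl transcript alone. The causes of these changes were not tested. The depth is unknown, and levels under 1 FPKM are the least certain.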

Other observations

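Several peptide and vesicle genes that did not reach the level required for testing were high in the library labelled calf 3. They were chosen after their values were seen and have no test. VGF, a granin-like precursor, was 20.3 FPKM there and at most 0.0858 FPKM elsewhere. SST, the somatostatin precursor, was 16.4 FPKM against at most 0.0244 FPKM, and PMCH, the precursor of melanin-concentrating hormone, was 19.6 FPKM against at most 0.389 FPKM. HCRT, the hypocretin precursor, was 2.52 FPKM and NTS, the neurotensin precursor, 7.86 FPKM. The vesicle GTPase RAB3A was 91.1 FPKM against at most 1.06 FPKM, and the vesicle membrane protein PTPRN was 13.9 FPKM against at most 0.276 FPKM. INSL3, a hormone of Leydig cells, was 0.121 FPKM in that library, against 1349 and 1041 FPKM in calf 1 and calf 2 and 1403 to 2262 FPKM in the bulls.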
